A study of Caenorhabditis elegans with 60 samples.

Results

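The comparison asked whether losing MET-2 changed histone H3 lysine 9 trimethylation (H3K9me3) by the same amount in 2 mutant backgrounds of Caenorhabditis elegans. It was defined as an interaction in log2 of H3K9me3 over input: the value of met-2 nrde-3 less that of nrde-3, minus the value of lin-61 met-2 less that of lin-61. The libraries were chosen by genotype from the titles. They were 24 of the 30 libraries of the series, from 12 of its 15 chromatin preparations, and no wild-type library was used. The 4 groups were met-2(n4256) with nrde-3(tm1116), nrde-3(tm1116) alone, met-2(n4256) with lin-61(tm2649), and lin-61(tm2649) alone, each with 3 preparations of early embryos and 1 input and 1 H3K9me3 library per preparation. The labels place met-2 on chromosome III, nrde-3 on X and lin-61 on I. Every group carried a mutation in nrde-3 or lin-61, so neither effect of met-2 is its effect in otherwise wild-type embryos. Chromatin came from whole embryos, so a level averages over their cells. The titles name H3K9me3 but the extraction protocol names an antibody to the nuclear envelope protein LEM-2, and the protocols state both 2 and 3 replicates. The titles were followed at both points.

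H3K9me3 marks silent chromatin and in C. elegans lies mostly on repeat-rich chromosome arms. MET-2 is the worm relative of SETDB1 and places mainly the mono- and dimethyl forms of the mark, on which trimethylation can build. NRDE-3 is an Argonaute protein that takes small interfering RNAs into the nucleus, where they guide silencing, and LIN-61 is an MBT-repeat protein that binds methylated lysine 9. The title of the series puts NRDE-3 and LIN-61 on separate routes to this mark, and the interaction asks whether removal of MET-2 had a different effect along each.

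Counts were deposited for windows of 500 bp on the ce10 genome, and 184612 windows with evenly covered inputs were tested. The nrde-3 strains were all in library series 2236 and the lin-61 strains all in series 2080, so background and series cannot be told apart. Each effect of met-2 lies within 1 series, and the effects share no library. H3K9me3 libraries held 45137188 to 58771814 counts in the nrde-3 strains and 22265768 to 43856170 in the lin-61 strains. Inputs held 47874152 to 62101882 and 39698732 to 53498742 counts. The 99th percentile of an H3K9me3 library lay at 4.86 to 14.6 times its median window in the nrde-3 strains and at 2.42 to 3.47 times in the lin-61 strains. By this measure the lin-61 series had the lower contrast. Inputs stood at 1.26 to 1.31 and 1.24 to 1.27 times. Within nrde-3 the contrast was uneven too: the SD of log2 ratios over windows was 0.650, 0.923 and 0.505 in preparations 1 to 3.

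The input labels of the nrde-3 strains went against the H3K9me3 labels at gaps found in the inputs. Depth in a gap is given as the mean count per window over the library's median tested window. At III 8376567 to 8377566, on the chromosome of the met-2 allele, the libraries labelled met-2 nrde-3 stood at 0 to 0.00448 for H3K9me3 but at 0.990 to 1.05 for input. The libraries labelled nrde-3 stood at 0.766 to 0.893 for H3K9me3 and at 0 to 0.00856 for input. In the lin-61 strains the labels did not cross: lin-61 met-2 held 0.0207 to 0.221 for H3K9me3 and 0 to 0.00386 for input, and lin-61 held 0.868 to 0.898 and 0.970 to 1.13. The gap thus went with the met-2 label in the H3K9me3 libraries of both backgrounds, but in the inputs of the lin-61 strains alone. A gap on V, 18427897 to 18465896, crossed in the same way, with inputs at 0.0832 to 0.110 for met-2 nrde-3 and 0.816 to 0.866 for nrde-3, and H3K9me3 at 2.39 to 3.61 for met-2 nrde-3 and 0.204 to 0.553 for nrde-3. None of these windows was tested. Labels were kept, and the counts of the interaction, the called parts and the crossing windows are also given with the inputs of the nrde-3 and met-2 nrde-3 strains exchanged. All other values have the inputs as labelled unless stated. If the inputs are the crossed libraries, each such level of an nrde-3 strain is taken over the input of the other strain. Which labels are wrong was not tested.

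The effect of met-2 differed between the backgrounds in both directions. Loss of H3K9me3 was larger in the nrde-3 background on the right arm of V, the 1 arm of 10 autosome arms whose mean passed the test. Gain was larger in the nrde-3 background in the centres of I, II, III and IV. edgeR's quasi-likelihood test called the interaction at an adjusted p of 0.05 in 18038 windows, 9.77% of those tested. Of these, 9678 (5.24% of those tested) were lower, meaning a more negative met-2 effect in the nrde-3 background, with a median log2 interaction of -1.65. The other 8360 (4.53%) were higher, with a median of 1.24. Over all windows tested the median was -0.06. Without adjustment, 42690 windows had a p under 0.05.

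After quantile normalization of the log2 ratios the split of the calls turned: 42.6% of 16013 calls by limma were lower, against 53.7% of the calls by edgeR. Limma without that normalization called 15975, of which 53.0% were lower. Exchanging the inputs gave 15959 calls, 55.0% lower, and 13316 of the 18038 (73.8%) were called again in the same direction. Single preparations moved the count: it was 11702 without met-2 nrde-3 preparation 1, 11412 without met-2 nrde-3 preparation 3 and 10594 without lin-61 preparation 3. Lower calls were 5590, 6426 and 5996 without met-2 nrde-3 preparation 1, 2 or 3, 15314 without nrde-3 preparation 3 and 5183 without lin-61 preparation 3. Higher calls were 5416 without met-2 nrde-3 preparation 3 and 5411 without lin-61 preparation 3.

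Each effect was also tested on its own. Within the nrde-3 background met-2 changed 45994 windows (24.9%), 25751 lower (13.9%) and 20243 higher (11%), or 46730 with the inputs exchanged. Within the lin-61 background it changed 24412 (13.2%), 11421 lower (6.19%) and 12991 higher (7.04%). Across windows the effects correlated at r = 0.552, as a description over windows that share libraries.

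**Figure D1:**
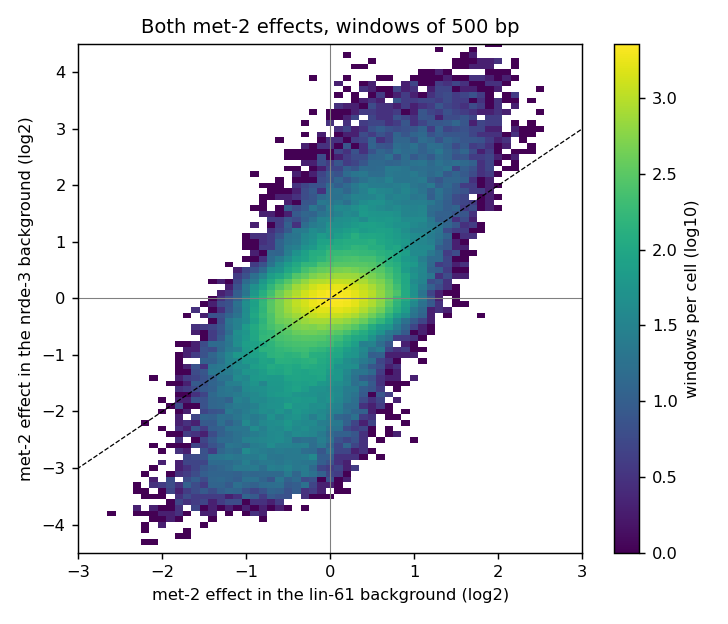
Both effects of met-2 in each window of 500 bp, in log2 of H3K9me3 over input, with the nrde-3 background on the vertical axis and the lin-61 background on the horizontal axis. Colour gives the number of windows per cell on a log10 scale and the dashed line marks equal effects. The cloud is stretched along the vertical axis, and windows with strong loss in the nrde-3 background reach from strong loss to no effect in the lin-61 background.

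Most of the lower windows were losses in the nrde-3 background without a called change in the lin-61 background. Such windows numbered 7537, or 77.9% of the lower calls. Their median effects were -2.0 in the nrde-3 background and -0.18 in the lin-61 background, and 95.9% of them lay on autosome arms. Of all 184612 windows tested, 98996 lay on autosome arms, 52069 in autosome centres and 33547 on X. A further 559 windows lost the mark in both backgrounds, with median effects of -3.13 and -1.24. In 1125 windows (11.6%) the lower interaction went with a gain called in the lin-61 background, at a median of 0.83, beside -0.21 in the nrde-3 background. These lay on arms (43.1%), in centres (30.0%) and on X (26.8%). Windows called neither for the interaction nor for either effect lay there at 50.8%, 27.5% and 21.7%, so the share in centres was close to theirs.

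The 9678 lower windows stood close to input in met-2 nrde-3, with medians of 0.05, 0.05 and 0.08 in the 3 preparations, against 1.80, 2.66 and 1.29 in nrde-3. In lin-61 met-2 their medians were 0.46, 0.41 and 0.46, against 0.68, 0.70 and 0.45 in lin-61. All nrde-3 preparations thus held more of the mark over these windows than any lin-61 preparation, a contrast that crosses the library series. In the lin-61 background the double and the single mutant overlapped. The windows were chosen by the test, so these medians describe them and test nothing.

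Higher windows were mainly gains in the nrde-3 background. In 5333 of the 8360 (63.8%) a gain was called in the nrde-3 background and no change in the lin-61 background, with medians of 1.37 and 0.04, and 73.4% of these lay in autosome centres. Both backgrounds gained in 1302 windows (15.6%), with medians of 2.76 and 1.10. In 1150 windows (13.8%) a loss was called in the lin-61 background, at a median of -0.77, beside 0.24 in the nrde-3 background. Of these, 58.2% lay on arms, not far from the 50.8% of windows called neither for the interaction nor for either effect.

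Over all 8360 higher windows the medians were 1.09, 0.99 and 1.32 in met-2 nrde-3, against -0.19, -0.17 and -0.06 in nrde-3. They were 0.32, 0.26 and 0.28 in lin-61 met-2, against 0.29, 0.26 and 0.35 in lin-61. The groups of the nrde-3 background did not overlap, whereas those of the lin-61 background did. These windows too were chosen by the test, so their medians describe them and test nothing.

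The arms and centres were then compared as whole parts. Each chromosome was cut into 3 equal lengths, the outer ones called arms and the middle one the centre, and the log2 ratios were averaged over windows for each preparation. Autosome arms averaged 0.05 ± 0.01 in met-2 nrde-3 and 0.39 ± 0.17 in nrde-3 (SD, n = 3 each), and -0.01 ± 0.05 in lin-61 met-2 and 0.14 ± 0.05 in lin-61. The effects were -0.35 and -0.15, and the interaction was -0.20 with an SE of 0.11. Without nrde-3 preparation 2 it was -0.11. The arms did not all go the same way: the mean interaction was above 0 on the left arm of I (0.08) and the right arms of II (0.07) and III (0.10), none of them called. Autosome centres averaged 0.29 ± 0.05 in met-2 nrde-3 and -0.11 ± 0.06 in nrde-3. The lin-61 strains averaged 0.03 ± 0.01 in lin-61 met-2 and -0.13 ± 0.04 in lin-61. Here the effects were 0.41 and 0.16, and the interaction was 0.25 with an SE of 0.05. On X the effects were 0.01 and 0.10, and the interaction was -0.10 with an SE of 0.02. By windows, 8.66% were lower and 2.58% higher on autosome arms, 0.774% and 10.7% in autosome centres, and 2.08% and 0.614% on X.

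Scaling by library totals in place of TMM moved the median interaction over all windows to 0.07, a shift of more than 0.1. Under it the mean interaction was -0.07 for arms and 0.37 for centres, while for X its direction turned, to 0.03. Quantile normalization left -0.11 for arms, 0.27 for centres and -0.09 for X. With the inputs exchanged the means were -0.18, 0.26 and -0.05.

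Of the 18 chromosome parts, limma with Benjamini-Hochberg adjustment over the 18 called 5. The centre of III stood at 0.27, 0.25 and 0.34 in met-2 nrde-3, against -0.14, -0.23 and -0.10 in nrde-3. Its level was -0.04, -0.05 and -0.04 in lin-61 met-2, against -0.13, -0.15 and -0.06 in lin-61. The double mutant lay above the single mutant in every preparation of both backgrounds, and the effects of 0.45 and 0.07 differed by 0.38 ± 0.05 (SE, adjusted p = 0.000605, limma). The centres of II and I had interactions of 0.33 ± 0.06 and 0.31 ± 0.05 (adjusted p = 0.00131 for each, limma). In the lin-61 background the effect of 0.18 in the centre of II was itself called (adjusted p = 0.00643, limma). Those in the centres of I (0.07, 0.169) and III (0.177) were not. The centre of IV followed with 0.17 ± 0.05 (0.0207), and it no longer passed without met-2 nrde-3 preparation 3, lin-61 met-2 preparation 1 or lin-61 preparation 3, with adjusted p-values of 0.0562, 0.0523 and 0.0576. With library totals as scaling the centres of I, II and IV missed the threshold at 0.43, 0.46 and 0.30, and the centre of III passed at 0.51.

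The right arm of V was the arm that passed. Its mean level was 0.13, 0.11 and 0.16 in met-2 nrde-3, against 1.02, 1.45 and 0.75 in nrde-3. The level was 0.16, 0.23 and 0.29 in lin-61 met-2, against 0.48, 0.51 and 0.30 in lin-61. Groups did not overlap in either background, and the effects of -0.94 and -0.20 gave an interaction of -0.74 ± 0.19 (SE, adjusted p = 0.0139, limma). Lower windows made up 28.2% of this arm. They made up 15.5% of the left arm of II and 12.9% of the right arm of I, whose mean interactions of -0.38 and -0.30 missed the threshold (adjusted p = 0.0583 and 0.0897, limma). The left arm of II passed with the inputs exchanged (-0.42, 0.0312), after quantile normalization (-0.23, 2.49e-05) and with library totals as scaling (-0.25, 0.0466). It also passed without nrde-3 preparation 2 (-0.24, 0.0108) or 3 (-0.49, 0.00314). The right arm of I was at -0.32 with the inputs exchanged (0.0989). It was at -0.16 without nrde-3 preparation 2 (0.0614), and it passed after quantile normalization (-0.16, 5.13e-05) and without nrde-3 preparation 3 (-0.41, 0.00353).

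The parts also differ in how far the lin-61 background shared the change. On the left arm of III met-2 lowered the mean in both backgrounds, with effects of -0.64 and -0.42, and the interaction of -0.22 was not called (adjusted p = 0.188, limma). It was -0.08 without nrde-3 preparation 2 (0.349) and -0.33 without nrde-3 preparation 3, where it passed (0.0167). The centre of V gained in both, by 0.45 and 0.34, with an interaction of 0.11 (0.0900). With the inputs exchanged that interaction was 0.17 and passed (0.0295), and without met-2 nrde-3 preparation 3 it was 0.07. On X the centre gained in both as well, by 0.17 and 0.26, and the interaction of -0.09 was not called (0.0850). These misses do not show that the effects were alike.

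**Figure D2:**
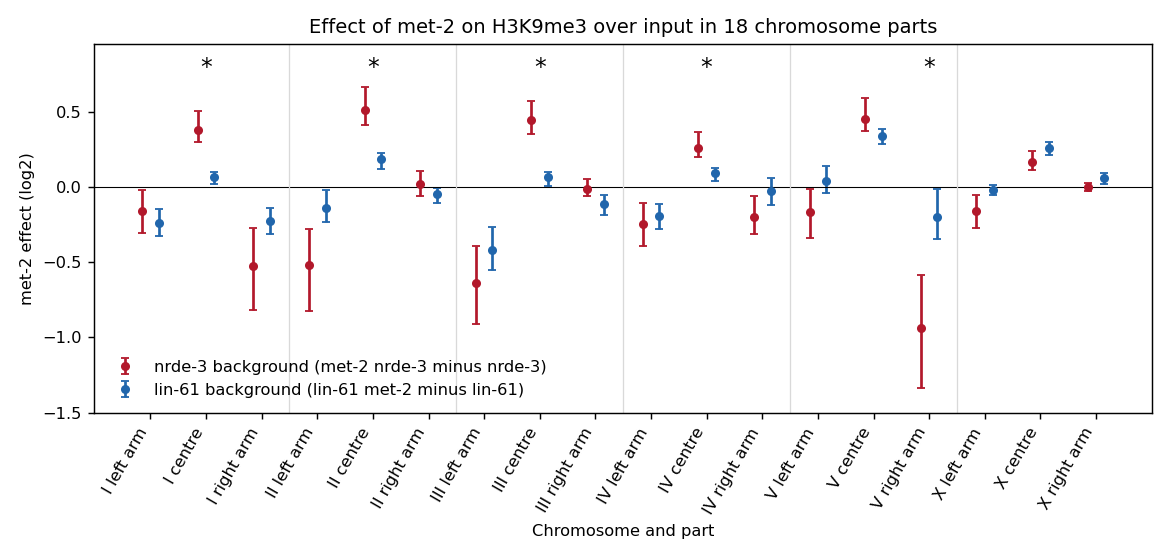
Effect of met-2 on the mean log2 H3K9me3 over input in 18 chromosome parts, with the nrde-3 background in red and the lin-61 background in blue. Points are means of 3 against 3 preparations and bars span the 9 differences between single preparations. Stars mark the 5 parts where the interaction was called: the centres of I, II, III and IV, where the red point is higher, and the right arm of V, where it is lower.

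The repeats kept the 5 called parts. With the inputs exchanged 7 parts were called, the others being the left arm of II and the centre of V, and the right arm of V stood at -0.71 and the centres of I to IV at 0.31, 0.34, 0.36 and 0.20. After quantile normalization these values were -0.48, 0.34, 0.37, 0.42 and 0.18, and with both steps together -0.47, 0.32, 0.36, 0.37 and 0.19, each called by limma. Quantile normalization raised the number of called parts to 16, and both steps together to 13. Without nrde-3 preparation 3 the number was 11.

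Bins of 200 kb showed the position of the differences more finely. The 5 lowest bins among those with at least 100 tested windows lay on the right arm of V and the left arm of II. From V 17400001 to 17600000 the effects averaged -2.93 and -0.34, the interaction averaged -2.59, and 97.5% of windows were called lower. The adjoining bins from 17200001 and 17000001 averaged -2.55 and -2.23, with 99.7% and 88.3% of windows lower. On II the bins from 1600001 and 1800001 averaged -2.05 and -1.87.

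At the other end, the bin from II 7600001 to 7800000 averaged 1.29 and 0.35 in the effects and 0.94 in the interaction, with 45.8% of windows called higher. The next were III 6600001 to 6800000 at 0.66, V 6000001 to 6200000 at 0.60, III 8800001 to 9000000 at 0.59 and III 5000001 to 5200000 at 0.56. The bin on V lay just inside the left arm, at 29.1% of the length of the chromosome.

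**Figure D3:**
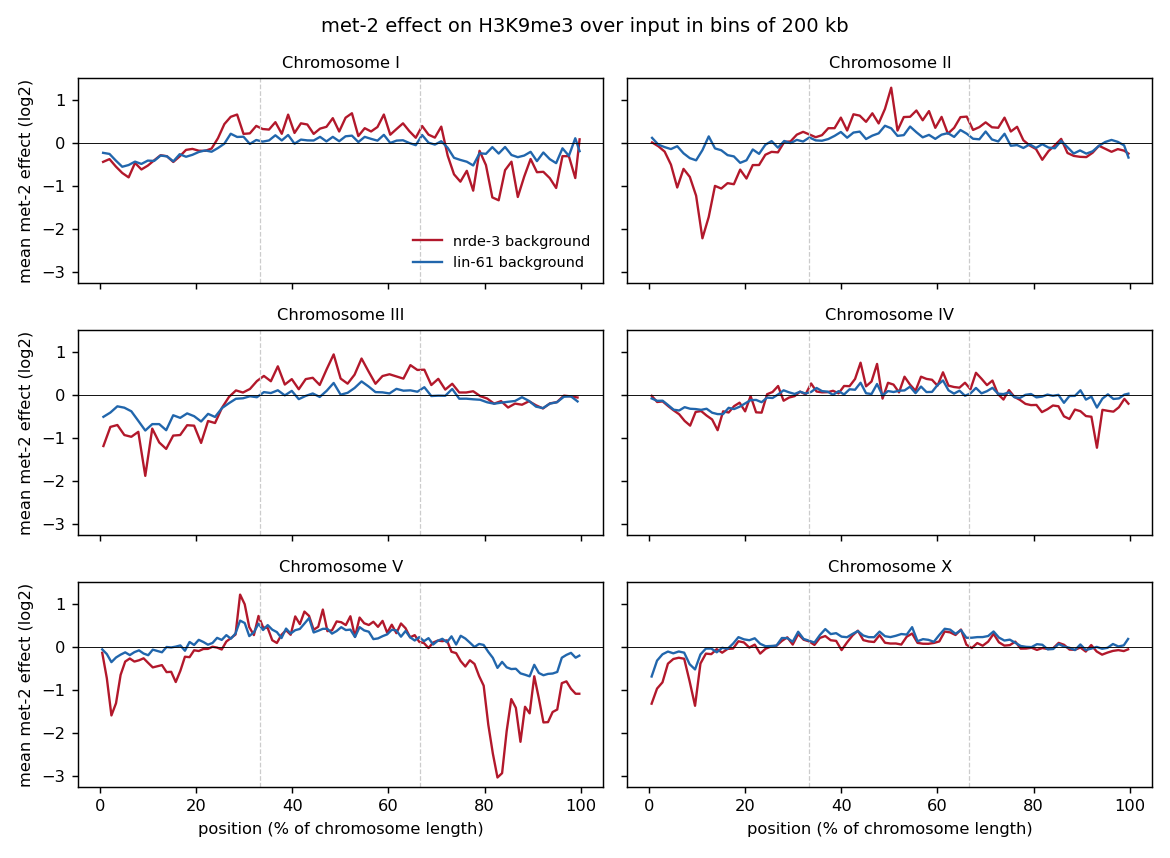
Mean met-2 effect on log2 H3K9me3 over input in bins of 200 kb along the 6 chromosomes, against position in percent of chromosome length. Red is the nrde-3 background, blue the lin-61 background, and dashed lines divide arms from the centre. The curves part most on the right arm of V, where red reaches -3.03 while blue stays at -0.48, and around 11.1% of II.

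The differences also followed the level of the mark. Windows were ranked by their mean log2 ratio over the 4 genotypes and cut into 10 equal groups. The level of a group was the median over its windows in each preparation, averaged over preparations. In the top group it was 0.75 ± 0.14 in met-2 nrde-3 and 1.59 ± 0.66 in nrde-3 (SD, n = 3 each). The lin-61 strains held 0.85 ± 0.07 in lin-61 met-2 and 0.88 ± 0.11 in lin-61. The interaction of these levels was -0.80, with 30.6% of windows called lower and 14.3% called higher. In the 5th group it was 0.02, with 1.29% lower and 2.17% higher. The mean log2 ratio used for the ranking holds the values tested, so this is a description of where calls lay.

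Loci were formed from runs of windows called in 1 direction, with gaps of no more than 1 window, and needed at least 3 called windows. There were 648 lower loci with a median length of 3000 bp and a longest of 57000 bp, and 92.0% lay on autosome arms, 302 of all 648 on V. Higher loci numbered 773, with a median of 2500 bp and a longest of 34500 bp, and 70.5% lay in autosome centres. Of the 184612 windows tested, 98996 lay on autosome arms and 52069 in autosome centres, and 37897 lay on V. In 643 of the lower and all 773 higher loci the 9 differences between single preparations in one background did not overlap the 9 in the other. Over single windows this held for 23649 (12.8%), and for 15947 (8.64%) that were also called. Calls helped to define the loci, so their share is not set against that background. Locus interactions below are means of the windows' fitted values, with the SE computed from the preparation levels.

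Among the loci with a larger loss, 9 of the 10 with the most negative interaction lay between 17203402 and 17611900 on V. At V 17556901 to 17563400 the level was 0.22, 0.13 and 0.34 in met-2 nrde-3, against 2.99, 3.98 and 2.42 in nrde-3. In lin-61 met-2 it was 0.73, 0.68 and 0.73, against 1.01, 1.05 and 0.58 in lin-61. Every nrde-3 preparation lay far above every other preparation, and the groups of the lin-61 background overlapped. The interaction was -2.90 ± 0.48 (median adjusted p = 0.000501, edgeR).

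The longest named locus, V 17203402 to 17253401 with 50000 bp, showed a large loss in the nrde-3 background. It held 0.29, 0.24 and 0.41 in met-2 nrde-3, against 3.24, 4.2 and 2.67 in nrde-3. In lin-61 met-2 it held 0.67, 0.70 and 0.82, against 1.42, 1.49 and 0.99 in lin-61. Groups did not overlap in either background, but the effect of -0.57 in the lin-61 background was not called (median adjusted p = 0.305, edgeR). The interaction was -2.65 ± 0.48 (0.00129).

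On II the lowest locus was 1771506 to 1773005. Its level was 0.14, 0.35 and 0.50 in met-2 nrde-3, against 2.54, 3.42 and 2.20 in nrde-3. It was 0.79, 0.51 and 0.56 in lin-61 met-2, against 0.43, 0.60 and 0.37 in lin-61. Only the nrde-3 background separated the genotypes there, and the interaction was -2.71 ± 0.39 (median adjusted p = 0.000862, edgeR).

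The lowest loci of the other chromosomes had smaller interactions. III 761100 to 774599 stood at -0.38, -0.26 and -0.20 in met-2 nrde-3, against 2.12, 2.99 and 1.68 in nrde-3, and at -0.13, 0.05 and 0.08 in lin-61 met-2, against 0.43, 0.35 and 0.25 in lin-61. Its interaction of -2.34 ± 0.40 was -1.65 with the inputs exchanged and -1.03 when quantile normalization was added. On I, 12577948 to 12592947 had an interaction of -2.21 ± 0.45.

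At X 1659730 to 1661229 the mark fell in both backgrounds. The level was 0.16, 0.18 and -0.03 in met-2 nrde-3, against 3.08, 4.18 and 2.77 in nrde-3. In lin-61 met-2 it was 0.65, 0.83 and 0.54, against 2.19, 2.07 and 1.45 in lin-61. The effects of -3.24 and -1.23 were both called, and the interaction was -2.15 ± 0.50 (median adjusted p = 0.00944, edgeR). After quantile normalization it was -0.67 (0.249) and after the lin-61 series was scaled to the contrast of nrde-3 it was -1.73 (0.0591), so the call did not hold under either. The lowest locus of IV, 8569308 to 8572307, lay in the centre of the chromosome. Its interaction was -1.92 ± 0.40, and it missed the threshold with inputs exchanged and quantile normalization together (-0.95, 0.0650).

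Among the loci with a larger gain, III 9337063 to 9344562 had the highest interaction. Its level was 2.72, 2.27 and 3.01 in met-2 nrde-3, against -0.21, -0.24 and -0.13 in nrde-3. In lin-61 met-2 it was 0.50, 0.55 and 0.45, against 0.48, 0.38 and 0.65 in lin-61. The locus held more H3K9me3 than input in all preparations except those of nrde-3, and met-2 made no called difference in the lin-61 background. The interaction was 2.94 ± 0.23 (median adjusted p = 2.63e-05, edgeR).

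A pair of neighbouring loci in the centre of III, 6746574 to 6772573 and 6786074 to 6795073, behaved alike. The first, 26000 bp long, stood at 3.20, 2.94 and 3.54 in met-2 nrde-3, against 0.05, 0.29 and 0.10 in nrde-3, and at 1.24, 1.04 and 1.2 in lin-61 met-2, against 0.43, 0.32 and 0.46 in lin-61. Double mutants lay above single mutants without overlap in both backgrounds, but the effects were 3.08 and 0.76, of which the second was not called (median adjusted p = 0.0602, edgeR). The interaction was 2.37 ± 0.20 in the first locus (median adjusted p = 0.000335, edgeR) and 2.59 ± 0.21 in the second (0.000162).

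At II 12919458 to 12922957 the effects pointed apart. The level was 2.23, 1.83 and 2.5 in met-2 nrde-3, against -0.24, -0.05 and 0.18 in nrde-3. It was -0.10, 0.25 and 0.13 in lin-61 met-2, against 0.62, 0.34 and 0.65 in lin-61. Groups did not overlap in either background, yet the effect of -0.45 in the lin-61 background was not called (median adjusted p = 0.347, edgeR). The interaction was 2.68 ± 0.27 (4.47e-05).

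X held few higher loci, 9 of 773, but 1 of them ranked among the first 10. X 16380667 to 16388166 stood at 2.79, 2.25 and 3.04 in met-2 nrde-3, against -0.09, 0.21 and 0.12 in nrde-3, and at 1.14, 0.97 and 1.10 in lin-61 met-2, against 0.79, 0.72 and 0.94 in lin-61. Its interaction was 2.43 ± 0.26. IV 8260809 to 8267808 gained in both backgrounds, by 3.40 and 1.2, and the interaction was 2.25 ± 0.24 (median adjusted p = 0.000908, edgeR).

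**Figure D4:**
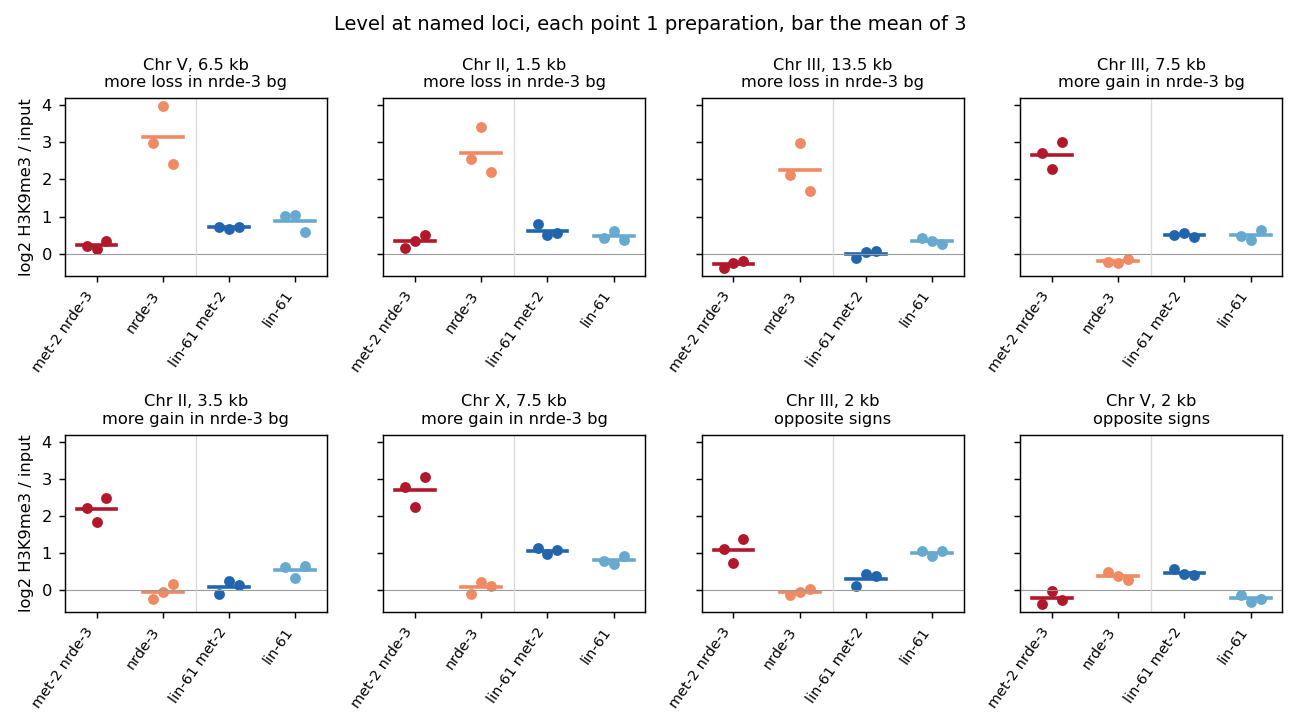
Level of H3K9me3 over input (log2) at 8 named loci in every preparation, with a bar at the mean of 3, and double mutants left of their single mutants. The 3 loci with more loss have high points in nrde-3 alone, between 1.68 and 3.98, and the 3 with more gain have high points in met-2 nrde-3, between 1.83 and 3.04. At the last pair the order of double and single mutant turns between the backgrounds.

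A few windows crossed: met-2 changed the mark in opposite directions in the backgrounds, with both effects and the interaction called. There were 217 crossing windows, 0.118% of those tested. In 176 of them met-2 raised the mark in the nrde-3 background and lowered it in the lin-61 background, and in 41 the reverse held. The median effects were 0.73 and -0.68 in the 176, and -0.70 and 0.72 in the 41. Of the 176, 112 lay in autosome centres and none on X, and 24 of the 41 lay on V. Of the 184612 windows tested, 52069 lay in autosome centres, 33547 on X and 37897 on V. The count was 157 with the inputs exchanged and 413 after quantile normalization. It was 119 and 137 without met-2 nrde-3 preparation 1 or 3, 118 without nrde-3 preparation 1, and 90, 104 and 80 without lin-61 preparation 1, 2 or 3.

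Crossing windows formed 5 loci of at least 3 windows, each at most 2000 bp long. At III 8963065 to 8965064 the level was 1.13, 0.75 and 1.38 in met-2 nrde-3, against -0.11, -0.05 and 0.03 in nrde-3. It was 0.11, 0.43 and 0.39 in lin-61 met-2, against 1.05, 0.93 and 1.06 in lin-61. The double mutant lay above its single mutant in one background and below it in the other, with no overlap in either. The effects were 1.13 and -0.70, and the interaction was 1.85 ± 0.22 (median adjusted p = 0.000239, edgeR).

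III 10808557 to 10810056 showed the same order. Its level was 0.53, 0.61 and 1.16 in met-2 nrde-3, against -0.45, -0.39 and 0.09 in nrde-3, and -0.18, -0.12 and 0.06 in lin-61 met-2, against 0.62, 0.59 and 0.83 in lin-61. The interaction was 1.79 ± 0.28. I 2304992 to 2306491 and III 6359576 to 6361575 crossed the same way with interactions of 1.33 ± 0.18 and 1.19 ± 0.12. The interaction of all 4 passed with the inputs exchanged, after quantile normalization and with both steps. These passes are of the interaction alone, not of the crossing.

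V 7337945 to 7339944 crossed the other way. It stood at -0.37, -0.02 and -0.26 in met-2 nrde-3, against 0.50, 0.38 and 0.27 in nrde-3, and at 0.59, 0.43 and 0.42 in lin-61 met-2, against -0.12, -0.31 and -0.22 in lin-61. The interaction was -1.34 ± 0.14 (median adjusted p = 0.00277, edgeR). With the inputs exchanged it was -0.63 and no longer passed (0.167).

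Windows that were called and kept their direction under 4 repeats were counted last. The repeats were exchanged inputs, quantile normalization, both together, and the lin-61 series scaled by 1.23, the ratio of the SD over windows in nrde-3 to that in lin-61. That ratio takes the mean SD of each group, and nrde-3 preparation 2 had the largest SD, 0.92. Of the 18038 windows 7317 (40.6%) passed all 4: 3608 of the lower (37.3%) and 3709 of the higher (44.4%). Of these lower windows 3492 lay on autosome arms, and 2739 of the higher lay in autosome centres. Of the 217 crossing windows, 173 were among them. The repeats looked at the interaction alone, so these 173 did not all keep their crossing: with the inputs exchanged, 157 windows crossed.

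**Figure D5:**
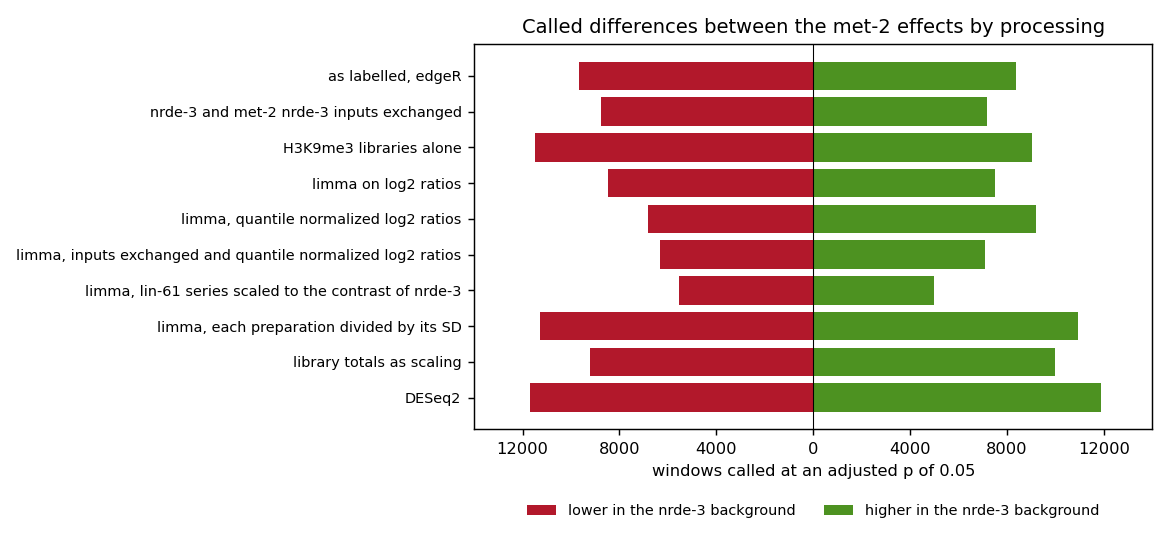
Number of windows of 500 bp called for the interaction under 10 ways of processing, with calls lower in the nrde-3 background drawn to the left of 0 and calls higher to the right. The top bar is the fit with inputs as labelled, at 9678 and 8360. Scaling the lin-61 series to the contrast of nrde-3 gives the shortest bar, at 5555 and 4983.

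Mitochondrial DNA, which carries no histones, was read as a check of background in the H3K9me3 libraries. Its log2 ratio was 0.13, 0.22 and 0.22 in met-2 nrde-3, against 0.13, -1.30 and -1.08 in nrde-3. It was -1.27, -1.29 and -1.38 in lin-61 met-2, against -1.56, -1.53 and -1.55 in lin-61. It was high in all met-2 nrde-3 preparations and in nrde-3 preparation 1. It was low in the other nrde-3 preparations and in all preparations of the lin-61 strains. The ratio thus split the nrde-3 group and did not simply follow genotype. These ratios use the inputs as labelled, and no value with exchanged inputs is given. The part of this background in the interaction was not tested.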

How the data were processed

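The authors deposited raw counts per window of 500 bp, 1 column per library, with the 2 runs of a library combined. The build is ce10 per the submitters' processing notes. The aligner, the counting tool and the handling of multiply mapped or duplicate reads are not given in the sources used here, so counts in repeats and of amplified fragments carry an error that cannot be sized. The 6 columns of N2 were not used. Of 200579 windows, 184612 were tested: nuclear, with a mean input count of at least 20 in each genotype and mean inputs differing by at most 1.5 times. This left out 15932 nuclear windows with counts.

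edgeR 4.0.16 in R 4.3.3 was fitted to the 24 libraries with TMM factors and 1 coefficient per genotype and library type, and p-values were Benjamini-Hochberg adjusted over all windows. The common dispersion was 0.0161. A level is the log2 ratio of scaled H3K9me3 to input counts, each with a pseudocount of 8. limma 3.58.1 tested the 18 chromosome parts and the quantile normalized or rescaled ratios, and DESeq2 1.42.0 was an alternative. Named loci had at least 3 called windows and no overlap of the 9 differences per background: the 10 largest per direction, the largest per chromosome and direction, and up to 5 crossing loci of each kind. Comparisons, lists and rules were chosen with earlier results of these data known. Replicates are separate preparations per the titles, but no label says that they come from separate cultures. The p-values of limma therefore measure the spread between preparations. The main edgeR fit did not pair the input and H3K9me3 library of a preparation, so its p-values measure the spread between libraries of a group. With a block for the preparation edgeR called 14788 windows (8.01%). Of the 18038 windows, 14523 (80.5%) were among them in the same direction.

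On simulated counts with this dispersion and 184612 windows, the interaction fit of edgeR recovered 8 of 100 differences of 2-fold and 92 of 100 of 4-fold. It called none of 1000 effects that were equal in both backgrounds and 6 unchanged windows. The simulation had no difference in contrast between series. It also had far fewer changed windows than were called in the data, so its recovery rates do not carry over to the data. No gene names or sequences are given, because the annotation at hand is of another build.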

Additional observations from a re-analysis of the deposited data

Results flagged for a closer look

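Each result here is a difference between the effects of met-2 in the nrde-3 and lin-61 backgrounds that passed a test of the difference itself. The interaction was called in 18038 windows and crossed in sign in 217. Among chromosome parts it was called in the centres of I (0.31), II (0.33), III (0.38) and IV (0.17) and on the right arm of V (-0.74).

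Of the 30 named loci, the higher ones among the first 10 had interactions of 2.94 and 2.68 (III 9337063 and II 12919458), 2.59 and 2.43 (III 6786074 and X 16380667), 2.39 and 2.37 (II 7672981 and III 6746574), 2.27 and 2.25 (IV 5979319 and IV 8260809), and 2.25 at both IV 7599812 and V 10020433. The highest on I was 2.23 at 7256470. The lower ones among the first 10 were -2.71 at II 1771506 and, on V, -2.90 at 17556901, -2.81 at 17605401, -2.73 at 17426402, -2.68 at both 17482901 and 17464401, -2.65 at 17203402, and -2.63 at 17400902, 17291902 and 17584401. The lowest on the other chromosomes were -2.34 (III 761100), -2.21 (I 12577948), -2.15 (X 1659730) and -1.92 (IV 8569308). The crossing loci stood at 1.85 (III 8963065), 1.79 (III 10808557), 1.33 (I 2304992), 1.19 (III 6359576) and -1.34 (V 7337945).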

How the results depend on the processing

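Each of the 30 named loci kept its direction under every alternative computed for it: 832 values kept their call and 8 lost it. The calls lost were those at X 1659730 (4 settings with quantile normalization or rescaled contrast), V 7337945 (3 settings with exchanged inputs) and IV 8569308 (1). Counts moved by over 1.5 times in the following cases. With the lin-61 series scaled to the contrast of nrde-3, limma called 10538 windows, 5555 lower and 4983 higher. Exchanged inputs with quantile normalization gave 6337 lower calls. Windows of 2 kb gave 9053 calls (4584 lower, 4469 higher) of 46462 tested and windows of 10 kb gave 3474 (1726 and 1748) of 9441, with fewer windows by construction. An adjusted p of 0.01 gave 7779 (3777 and 4002) and 23 crossing windows. Crossing windows numbered 413 after quantile normalization, 579 after quantile normalization of libraries by type, 516 after division by the SD, 356 with exchanged inputs and quantile normalization, 120 by limma with exchanged inputs (added after seeing the data), 141 with a preparation block and 498 by DESeq2. Called parts numbered 16, 15, 15 and 13 in the first 4 of these settings, and 3 with library totals. The cause was not tested.

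DESeq2 called 23575 windows, 49.6% lower. The left arm of IV, at -0.05 and not called, turned to 0.00519 after quantile normalization by type and to 0.0813 with library totals, which also turned the centre of X to 0.0362, its right arm to 0.0714 and the mean of X to 0.0321. Leaving out each preparation in turn gave 10594 to 24232 calls, 5183 to 15314 lower, 5411 to 9150 higher, 80 to 293 crossing windows, 4 to 11 called parts, -0.284 to -0.111 for the mean of the arms, 0.209 to 0.268 for that of the centres, and -0.118 to 0.0188 for the left arm of IV.

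A replicate block over the number of the preparation gave 17418 calls. Equal numbers did not pair preparations across genotypes, with correlations of their deviations from the group means of -0.07 to 0.01 for number 1, -0.14 to 0.12 for number 2 and -0.07 to 0.31 for number 3. In the simulated counts, at the depth of these libraries, 8 of 100 interactions of 2-fold were recovered. Only 100 interactions of 2-fold and 100 of 4-fold were set among 184612 windows, against 18038 calls in the data. The adjustment for multiple tests was therefore stricter there, and the rate does not give the share of such differences missed in the data.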

Other observations

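Many windows had little input depth in the lin-61 strains and were therefore not tested. In 1228 runs, of 5215 nuclear windows together, the most frequent pattern was low inputs in both lin-61 met-2 and lin-61. The nrde-3 strains were not low in that pattern. A strain counted as low in a window where all its inputs lay far below the median input of that window. A run can also hold windows with another pattern, such as low inputs in 1 strain only. Not all of these windows were empty. The longest run, V 8813438 to 8898437, stood at 0.00449 to 0.00610 of the median window in lin-61 met-2 inputs and 0.00633 to 0.00761 in lin-61 inputs, and at 0.993 to 1.00 and 0.979 to 1.06 in those of met-2 nrde-3 and nrde-3. Its H3K9me3 depth was 5.92 to 9.67 times the median window in met-2 nrde-3 and 2.93 to 7.66 times in nrde-3, so a stretch with much of the mark in the nrde-3 strains has no value in the interaction.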
